A study of Mus musculus with 5 samples.

Results

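Integrins are cell surface receptors made of 1 alpha and 1 beta chain that tie the cytoskeleton to the extracellular matrix or to other cells, and laminins are trimers of 1 alpha, 1 beta and 1 gamma chain that form the sheet of the basement membrane. In lung, laminins underlie the alveolar epithelium, the capillaries and the muscle of airways and vessels, and the pairing of chains decides which ligand an integrin holds. The genes described here are those whose symbol is Itga or Itgb with a number or 1 of the letters d, e, l, m, v and x, or Lama, Lamb or Lamc with a number, without the platelet chain Itga2b. Of 36 mouse genes with such names, 30 had a probe set mapped to that gene alone, out of 12393 genes in all: 20 integrin and 10 laminin chains. The other 6 were not analysed here.

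Whole lungs of mice were profiled with 1 array of pooled RNA for each of 5 conditions, so every value is that of 1 pool and no test was possible; the number of animals in a pool is not given in the sources used here. The induced pool came from SM22-tet-BMPR2delx4+ mice on doxycycline, in which the SM22 smooth muscle promoter drives a dominant-negative BMPR2 receptor, and had a right ventricular pressure of 50 ± 8 mmHg; the hypoxic pool, FVB/N mice of 8 weeks after 4 weeks of hypoxia, had the same pressure. The pools at 30 ± 3 mmHg were the uninduced pool (the same transgenic genotype, no doxycycline), wild-type FVB/N mice of 8 weeks, and the SM22-rtTA pool, which carries the doxycycline-dependent activator alone and received doxycycline. The 3 transgenic titles give 8 weeks without saying whether that is age or treatment, and the kind of error on the pressures is not stated.

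Values are scaled intensities, with a noise floor at 276; a value at or under the floor is called at the floor, and a ratio that involves one is a bound. A gene was called where 2 pools were at least 1.5-fold apart with the higher one above the floor. Lung identity was clear in every pool, with surfactant protein C (Sftpc) between 10705 and 13366. The wild-type pool also held kidney transcripts. The summed intensity of 10 kidney tubule markers was 53132 there and 2969 to 4033 in the other 4 pools, where 7 or more of the 10 were at the floor. Skeletal muscle markers, 12 in number, summed to 69153 after induction and 18235 in hypoxia, against 4513 to 6186 elsewhere, and 8 squamous epithelial markers to 16758 and 24584 against 2811 to 2890. In whole lung, fewer cells of a type and less RNA per cell cannot be told apart.

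Of the 30 chains, 24 exceeded the floor in 1 pool or more (16 integrins and 8 laminins) and 15 in all 5. The 6 at the floor everywhere were the leukocyte chains Itga4 and Itgae, the platelet and endothelial chain Itgb3, the hemidesmosome chain Itgb4, and Lama1 and Lamc3. Another 3 chains stood barely above it in a single pool: the collagen receptor chain Itga2 (285) and the epithelial chain Itgb6 (285), a partner of Itgav in activating TGF-beta, in hypoxia, and the myeloid chain Itgam (288) in SM22-rtTA. The floor thus leaves the partners of several expressed chains without a measured level, among them Itga4 and Itgae, which pair with Itgb7.

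**Figure D1:**
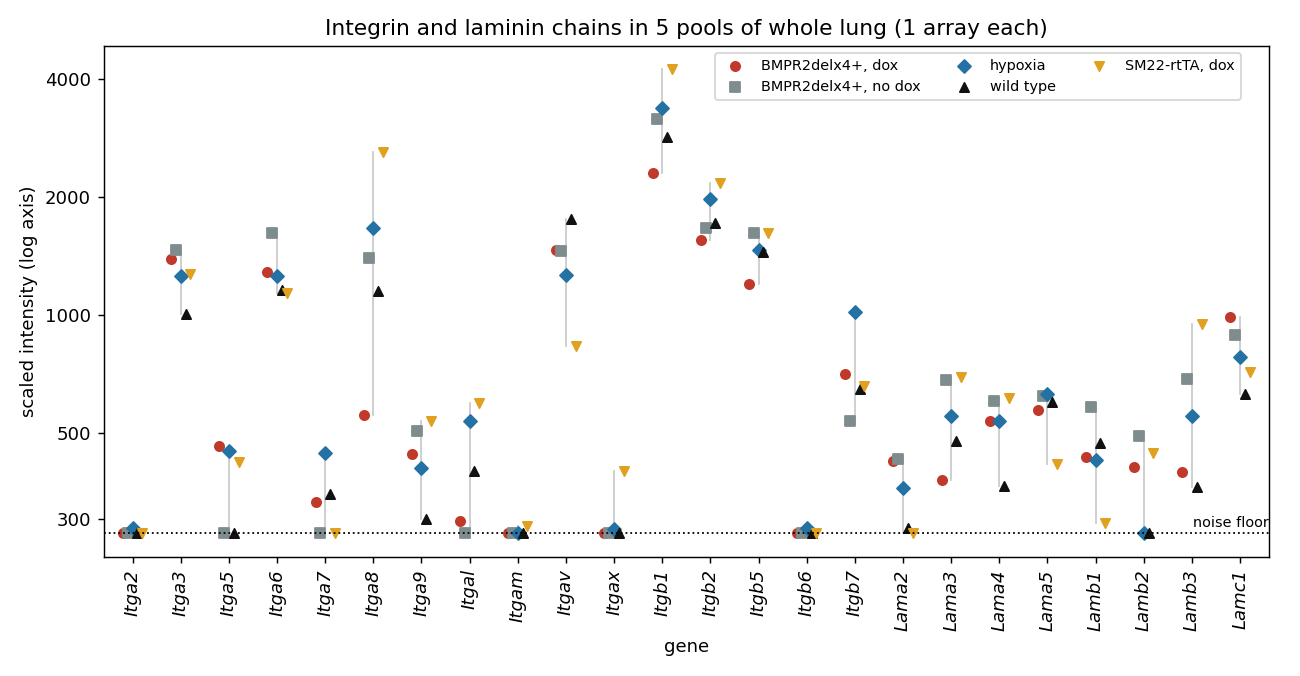
Scaled intensity (log axis) of the 24 chains above the noise floor in at least 1 pool, with 1 symbol per pool (1 array each, no error bar) and a grey line from the lowest to the highest pool; values under the floor (dotted line, 276) are drawn at it. Itga8 spans 554 in the induced to 2610 in the SM22-rtTA pool, the longest line, while Itgb5 and Itgb2 vary little by the probe sets shown.

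The widest range belonged to Itga8, the alpha chain of the nephronectin and fibronectin receptor of smooth muscle, pericytes and alveolar fibroblasts. Its intensity was 554 in the induced pool, 1393 in the uninduced, 1666 in the hypoxic, 1153 in the wild-type and 2610 in the SM22-rtTA pool. The induced pool was thus the lowest, below the whole range of the normal-pressure pools, which among themselves ranged from 1153 to 2610. The induced level was 2.51-fold under the uninduced one (log2 ratio -1.33), 4.71-fold under SM22-rtTA (-2.24) and 3.01-fold under hypoxia (-1.59). For scale, SM22-rtTA stood 1.87-fold above the uninduced pool, with neither at raised pressure. Its 1 probe set leaves no second measurement on the array.

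The partner and ligand of Itga8 can be set beside it. Itgb1, the beta chain with the most partners, was at 2303 in the induced pool, 3161 in the uninduced, 3375 in hypoxia, 2839 in wild type and 4241 in SM22-rtTA, again lowest after induction, with log2 ratios of -0.46 and -0.88 against the uninduced and SM22-rtTA pools. Another Itgb1 probe set ran the other way, at 3016 in the induced pool and 2342 and 1811 in those controls (0.36 and 0.74), while another gave -0.49 and -0.93, so the direction of Itgb1 depends on the probe set. The nephronectin gene Npnt was at 3615 in the induced pool, 4301 in the uninduced and 5836 to 6206 in the other 3 (log2 ratios -0.25 and -0.78). Smooth muscle markers (Acta2, Tagln, Myh11, Cnn1 and Smtn) did not follow Itga8: their summed intensity was highest in the induced pool, 13857, then 12772 in the uninduced, 8911 in hypoxia, 8286 in SM22-rtTA and 6962 in wild type. Of the 8 endothelial markers 5 were called lower after induction against the uninduced pool, beside 2.58% of all genes. The 8 summed to 21386 and 30392 in these pools. In wild type, where Itga8 was at 1153, they summed to 20337. Fibroblast markers summed to 15173 and 14571, with Tcf21 lower (1414 against 2255) and lumican (Lum) higher (874 against the floor). Whether these shifts bear on Itga8 was not tested.

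The laminin chains Lama3 and Lamb3, which occur together in epithelial basement membranes, were also lower after induction. Lama3 was at 377 in the induced pool against 682 in the uninduced, 552 in hypoxia, 475 in wild type and 692 in SM22-rtTA. It was 1.81-fold and 1.84-fold under its controls (log2 ratios -0.85 and -0.88) and under all 3 normal-pressure pools. Lamb3 was at 396, 686, 551, 364 and 948 in the same order of pools. The induced value was 1.73-fold under the uninduced and 2.39-fold under the SM22-rtTA pool (-0.79 and -1.26), yet wild type was lower still, so it lay within the normal-pressure range. Each had 1 probe set, and neither call against the uninduced pool held at 2-fold, with the floor at the 70th percentile (555) or with a pseudocount in place of the floor. Summed alveolar type 1 markers (Ager, Pdpn, Aqp5, Hopx and Emp2) were 22368, 28341, 27794, 20763 and 29209 in that order, ranking the pools as Lamb3 did. The 8 endothelial markers ranked them the same way, summing to 21386, 30392, 26537, 20337 and 30624. Alveolar type 2 markers summed to 26190 in the induced pool and 32930 to 35589 in the other 4. The squamous markers were highest in the hypoxic and induced pools, where neither chain was highest. The part of any of these cell types in the 2 laminin values was not tested.

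The stretch upstream of the transcription start is shown for Itga8 and Lamb3, which were lower together after induction, and for Itga5, the 1 chain called higher against the uninduced pool. Sequences are RefSeq's on GRCm38.p6, 250 bases ending just before the annotated start, read along the gene's strand: chr2:12301945-12302194 (minus) for Itga8, chr1:193301744-193301993 (plus, the first of 2 starts) for Lamb3 and chr15:103366792-103367041 (minus) for Itga5. Capitals mark matches, on either strand, to any of 5 motifs: CAGAC (the SMAD box core), GGCGCC (a GC-rich SMAD element), TGACTCA (the AP-1 site), ACGTG (the hypoxia response core) and GGGCGG (the GC box).
Itga8: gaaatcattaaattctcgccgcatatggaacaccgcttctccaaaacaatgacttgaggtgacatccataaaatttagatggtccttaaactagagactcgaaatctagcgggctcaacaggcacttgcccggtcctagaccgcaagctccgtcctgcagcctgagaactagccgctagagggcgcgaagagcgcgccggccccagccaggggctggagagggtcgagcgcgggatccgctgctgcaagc
Lamb3: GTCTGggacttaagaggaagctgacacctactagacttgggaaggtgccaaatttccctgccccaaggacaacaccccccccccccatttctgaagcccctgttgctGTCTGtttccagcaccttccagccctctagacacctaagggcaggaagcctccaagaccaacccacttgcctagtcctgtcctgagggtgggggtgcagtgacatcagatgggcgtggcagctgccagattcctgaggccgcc
Itga5: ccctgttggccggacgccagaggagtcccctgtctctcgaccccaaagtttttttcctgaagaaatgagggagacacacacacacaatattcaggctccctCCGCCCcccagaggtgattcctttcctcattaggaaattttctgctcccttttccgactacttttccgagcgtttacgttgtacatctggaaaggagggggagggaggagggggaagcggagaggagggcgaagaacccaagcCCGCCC
Lamb3 held 2 matches to the SMAD box core, a motif present in 42.2% of 32851 such windows of all genes. Itga5 held 2 GC boxes, found in 32.7% of windows. None of the letters searched occurred in the Itga8 window; the GC-rich SMAD element, the AP-1 site and the hypoxia response core, present in 9.59%, 4.46% and 16.6% of windows, occurred in none of the 3. Such matches describe the sequence and show no binding.

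Against the uninduced pool, then, 3 of the 24 measured chains were lower after induction (Itga8, Lama3 and Lamb3), where 2.58% of all 8597 measured genes were called lower. One chain, Itga5, was higher, where 5.09% of genes were. Outside the range of the 3 normal-pressure pools as well lay Itga8 and Lama3 on the low side (2 of 24, beside 1.33% of genes) and Itga5 on the high side (1 of 24, beside 3.3%). Itga5, the alpha chain of the classical fibronectin receptor, was at 462 in the induced pool, at the floor in the uninduced and wild-type pools, and at 448 and 420 in hypoxia and SM22-rtTA, so it was at least 1.67-fold above the uninduced control but 1.10-fold above the other transgenic pool. Its second probe set was lower after induction (294 against 403, log2 ratio -0.46), which turns the direction. The median log2 ratio of the 24 chains was -0.09, beside 0.00 over all measured genes, with 6 above 0, 14 below 0 and 4 at 0. Every measured laminin chain except Lamc1 was below 0, if only by 0.02 for Lama2, while the 16 integrins had a median of 0.00. Against SM22-rtTA, 4 of the 8 laminin chains were above 0 and 4 below, with a median of 0.17.

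Against SM22-rtTA, which like the induced pool received doxycycline, 5 chains were lower (Itga8, Itgal, Itgb1, Lama3 and Lamb3), beside 6.16% of all genes, and 2 higher (Itgav and Lama2), beside 9.79%. Of these, Itga8, Itgb1 and Lama3 were below all normal-pressure pools (3 of 24, beside 3.64% of genes) and 0 of 24 chains were called above all of them, beside 6.75%. The count below them is 2 of 24 with Itgb1 read from its other bright probe set, by which the induced pool (3016) was above all 3. The median was -0.03 against 0.01 over all genes. Itgav, the alpha chain of several receptors for vitronectin and latent TGF-beta, was at 1467 and 1458 in the induced and uninduced pools, 1263 in hypoxia, 1755 in wild type and 833 in SM22-rtTA. The last pool was thus the low one, and the ratio of 1.76 comes with no difference from the uninduced pool (log2 ratio 0.01). A second Itgav probe set was at 952 in wild type, 360 in SM22-rtTA, 329 in hypoxia and at the floor in the other 2, which gave -0.38 for this comparison, so the direction of Itgav depends on the probe set. Lama2, the alpha chain of muscle and nerve laminin, was at 424 and 429 in the induced and uninduced pools, 361 in hypoxia, 285 in wild type and at the floor in SM22-rtTA. Skeletal muscle markers differed widely between the induced and uninduced pools, as given above, while Lama2 was level there. The part of muscle in the Lama2 values was not tested.

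**Figure D2:**
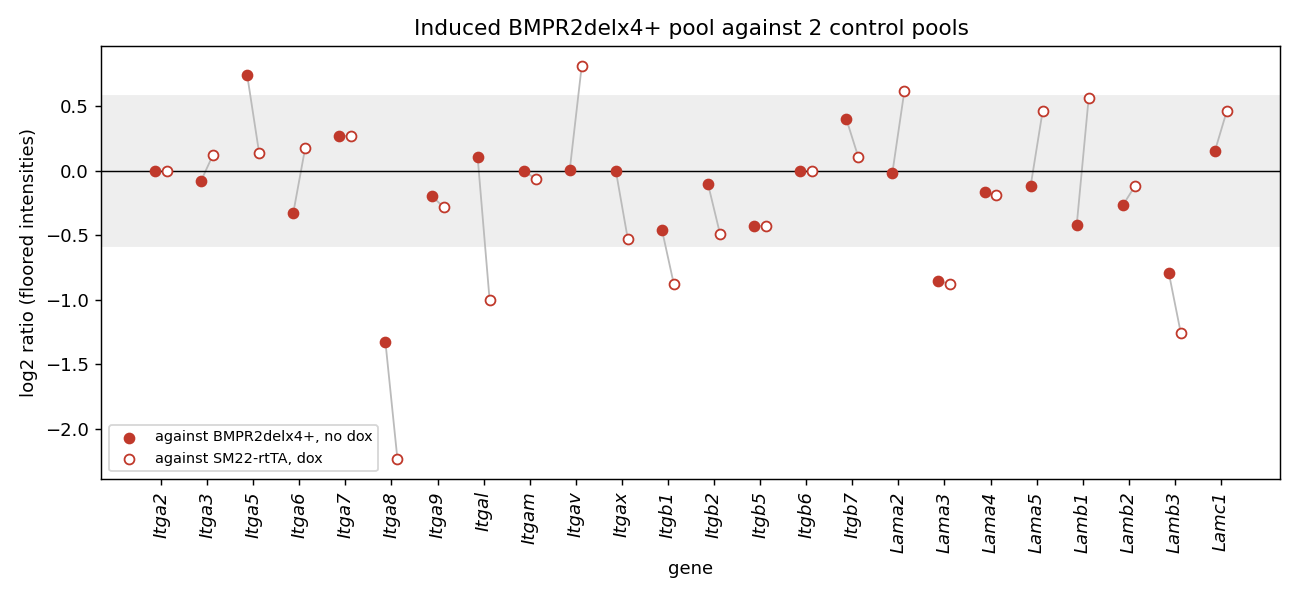
Log2 ratio of the induced BMPR2delx4+ pool to the uninduced pool (filled) and to the SM22-rtTA pool (open) for the 24 measured chains, from floored intensities; grey shading marks ratios under 1.5-fold and each point rests on 1 array per side. Itga8 (-1.33 and -2.24), Lama3 (-0.85 and -0.88) and Lamb3 (-0.79 and -1.26) lie under the shading with both controls.

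Among the laminin receptor alpha chains, none was called after induction by the probe set that stands for it; their partner Itgb1 is described above. Itga3, which binds laminins of epithelial basement membranes, was at 1386, 1461, 1255, 1005 and 1270 in the induced, uninduced, hypoxic, wild-type and SM22-rtTA pools. Itga6, which shares these ligands, was at 1288, 1614, 1256, 1158 and 1136. Both were highest in the uninduced pool, with highest-to-lowest ratios over the 5 pools of 1.45 and 1.42 by these probe sets. Other probe sets varied more. A dimmer one of Itga3 was at the floor in the induced pool and at 855 in SM22-rtTA, its highest pool (log2 ratio -1.63), and the mean of the 3 Itga3 probe sets gave -0.83 against that control, past 1.5-fold. A second probe set of Itga6 ranged from 371 in wild type to 1142 in the uninduced pool, with 941 in the induced and 586 in SM22-rtTA (0.68, also past 1.5-fold). Itga7, the laminin receptor of muscle fibres, was at 333 in the induced pool, 443 in hypoxia, 349 in wild type and at the floor in the other 2. The hypoxic pool was the highest, and the part of muscle in these values was not tested. Itgb1bp2 (melusin), which binds Itgb1 in striated muscle, was at 1080 in the induced pool and at the floor in the other 4. Cardiac muscle markers, 7 in number, summed to 24875 in the induced pool and 9214 to 11187 in the others. Of the 7, 6 were called higher against the uninduced and SM22-rtTA pools alike, beside 5.09% and 9.79% of all genes. The part of heart or skeletal muscle in the Itgb1bp2 value was not tested.

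None of the remaining laminin chains was called against the uninduced pool, and against SM22-rtTA Lama2 alone was. Lama4, the alpha chain of vessel walls, was at 537, 601, 535, 365 and 611 in the order used above, and Lama5, the main alpha chain of mature alveolar and endothelial basement membrane, at 571, 620, 628, 599 and 415. Lamc1, the gamma chain of most laminins, was highest in the induced pool, at 990, 889, 782, 628 and 716. Lamb1 was at 434, 581, 426, 471 and 293, and Lamb2, its counterpart in muscle and vessel laminins, at 408 and 491 in the induced and uninduced pools, 443 in SM22-rtTA and at the floor in hypoxia and wild type. Lamb1 was 1.34-fold lower in the induced than in the uninduced pool and 1.48-fold higher than in SM22-rtTA, and Lama5 and Lamc1 stood 1.38-fold above SM22-rtTA. A dimmer Lamb1 probe set was at the floor in both the induced and SM22-rtTA pools, and at 399 in the uninduced. The second Lama5 probe set was at 294 in the induced pool and at the floor in SM22-rtTA, a log2 ratio of at least 0.09. The lowest laminin level thus fell in different pools for different chains: wild type for Lama4, Lamb3 and Lamc1, SM22-rtTA for Lama2, Lama5 and Lamb1, and the induced pool for Lama3.

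No leukocyte integrin was called between the induced and uninduced pools, and the hypoxic and SM22-rtTA pools held the highest value of each of the 5 measured. Itgal, the alpha chain of LFA-1 on lymphocytes, was at 298 in the induced pool, at the floor in the uninduced, 535 in hypoxia, 399 in wild type and 596 in SM22-rtTA. Its partner Itgb2 was at 1548, 1662, 1976, 1717 and 2170, with the same 2 pools highest. Itgax, a chain of dendritic cells and alveolar macrophages, was at 399 in SM22-rtTA, at 284 in hypoxia and at the floor in the rest. B cell markers (Cd79a, Cd79b and Ms4a1) were highest in SM22-rtTA too, with a sum of 3914 against 829 to 1363 and all 3 at the floor in wild type. Macrophage markers summed to 3080 there and to 2367 to 2800 elsewhere. Neutrophil markers differed most between the uninduced pool (14782) and wild type (1105, all 4 at the floor), while Itgb2 was at 1662 and 1717 in these. The part of these cells in the Itgal and Itgax values was not tested.

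Hypoxia gave 3 chains higher than wild type (Itga5, Itgb7 and Lamb3), beside 7.64% of all genes, and 0 of 24 lower, beside 12%. Itga5 and Itgb7 were above all normal-pressure pools (2 of 24, beside 4.23%), and 0 were called below all of them, beside 4.82%. Itgb7, the beta chain of gut-homing and intraepithelial lymphocytes, was at 1017 in the hypoxic pool, 708 in the induced, 535 in the uninduced, 647 in wild type and 656 in SM22-rtTA. Hypoxia was thus the highest pool, at 1.57 times the wild-type level and 1.72 times the mean of both transgenic controls (log2 ratios 0.65 and 0.78). T cell markers (Cd3e, Cd3g, Cd4 and Cd8a) summed to 2434 in hypoxia, 1814 in the induced pool, 1288 in the uninduced, 1817 in wild type and 1427 in SM22-rtTA, with Cd3g at the floor in the uninduced and wild-type pools and Cd8a in the uninduced. Their part in the Itgb7 value was not tested. Itga5 was at least 1.62-fold higher; its other probe set gave a log2 ratio of 0.05. Lamb3 was 1.51-fold above wild type, but 0.55 lower on the log2 scale than the transgenic controls.

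The sign of most chains in hypoxia depended on the control. Against wild type, 20 of the 24 were above 0 and 2 below, with a median log2 ratio of 0.23 beside 0.03 over all genes. Against the mean of the transgenic controls, 11 were above and 13 below 0, with a median of -0.03 beside 0.00. The wild-type pool itself was lower than these controls in 17 of the 24, with a median of -0.25 beside 0.00 and 5 chains called lower (Itga8, Itga9, Lama4, Lamb2 and Lamb3; 10.2% of all genes) against 1 higher (Itgav; 17%). Itga9, a receptor for tenascin and VCAM-1, was at 301 in wild type, 406 in hypoxia, 441 and 504 in the induced and uninduced pools, and 536 in SM22-rtTA. These comparisons share pools, so their values are given side by side only. With values as deposited, the median over all genes moved to -0.13 for hypoxia and -0.14 for wild type against the transgenic controls, and the chains' median in hypoxia to -0.20. Alveolar type 1, endothelial and mesothelial marker sums were lowest in wild type as well (20763, 20337 and 621). So were those of smooth muscle, fibroblasts, macrophages, neutrophils, platelets and B cells. The sums of alveolar type 2 markers (35589) and of club and ciliated markers (22826) were highest there. The type 2 markers did not move together. Napsa was at 7080 in wild type and 1452 to 3549 elsewhere, and Sftpc was highest in wild type too (13366). Sftpa1 (7848) and Sftpb (7294) were lower in wild type than in the uninduced, hypoxic and SM22-rtTA pools. What the kidney transcripts in that pool contribute cannot be told apart from its other differences.

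Against the transgenic controls, hypoxia gave 2 chains higher (Itga7, at least 1.60-fold, and Itgb7), beside 12.2% of genes, and 1 lower (Lamb2, at the floor in hypoxia and at least 1.69-fold under the controls), beside 4.3%. Both higher chains were above all normal-pressure pools (2 of 24, beside 9.67%), while Lamb2 was at the floor in wild type too, leaving 0 of 24 below them all, beside 2.54%. Dimmer probe sets of Itga6 (-0.87) and Itgb5 (-0.74) were past 1.5-fold lower than the transgenic controls. Those that stand for these genes gave -0.11 and -0.14. By the dimmer sets, hypoxia and wild type were at 447 and 371 for Itga6, and at 348 and 366 for Itgb5. Itga8 in hypoxia was 0.53 above wild type and -0.19 against the transgenic controls on the log2 scale, within the range of the normal-pressure pools in both cases. By the probe sets that stand for the genes, Itgb7 was the chain called higher with both kinds of control. The other bright Itgb1 probe set was at 3108 in hypoxia, 1505 in wild type, 2342 in the uninduced pool and 1811 in SM22-rtTA. It too was past 1.5-fold higher with both, by log2 ratios of 1.05 (wild type) and 0.59 (transgenic controls). The set that stands for Itgb1 gave 0.25 and -0.12, and a dimmer one gave 0.12 and -0.22. Itgb1 in hypoxia thus depends on the probe set.

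**Figure D3:**
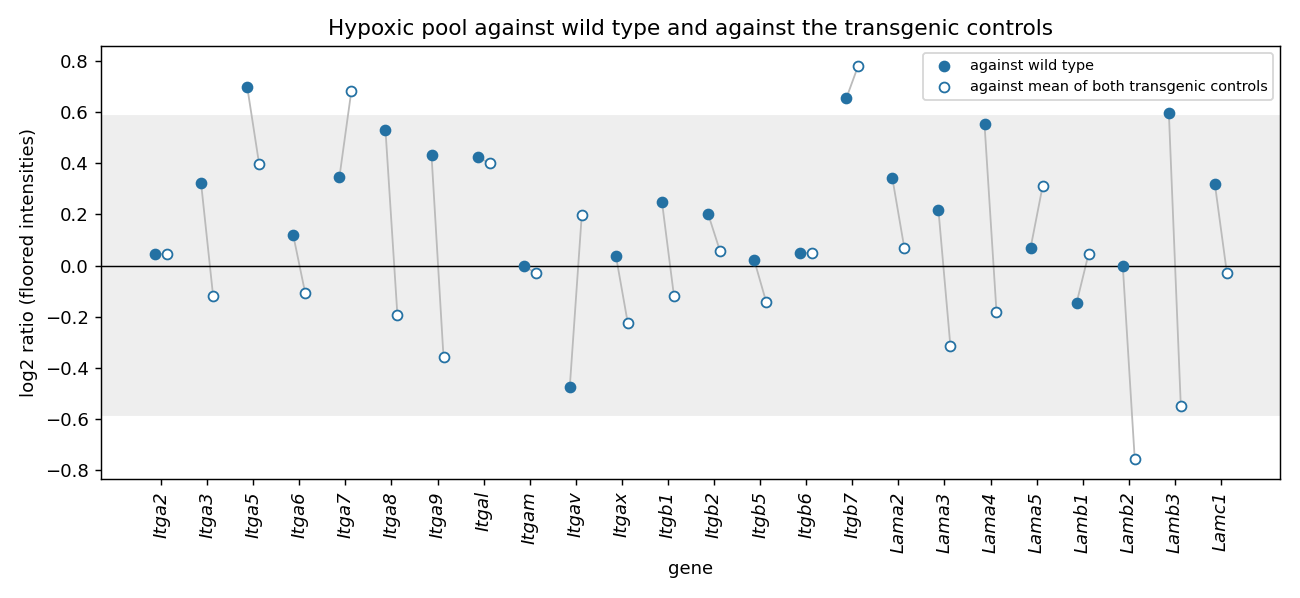
Log2 ratio of the hypoxic pool to wild type (filled) and to the mean of the uninduced and SM22-rtTA pools (open) for the 24 measured chains, from floored intensities; grey shading marks ratios under 1.5-fold and each point rests on single arrays. Itgb7 lies above the shading with both controls (0.65 and 0.78), while Lamb3 changes sign (0.60 and -0.55).

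Calls were also made between normal-pressure pools, in 6 of 24 chains for the pair of transgenic controls. SM22-rtTA was higher than the uninduced pool in Itga5, Itga8 and Itgal (3 of 24, beside 3.05% of all genes) and lower in Itgav, Lama2 and Lamb1 (3 of 24, beside 4.57%). Other probe sets gave -0.03 for Itga5 and 0.38 for Itgav, and without these chains 4 calls are left. Over the 15 chains above the floor in every pool, the SD of that log2 ratio was 0.52, and 0.34 over the 5894 such genes. The corresponding SD between the induced and uninduced pools was 0.43 for the chains and 0.36 for all genes. Between the induced and SM22-rtTA pools it was 0.81 for the chains and 0.48 for all genes. These comparisons share pools. Of the members called after induction, Itga8 had a ratio of -1.33, while the chain farthest apart between the uninduced and SM22-rtTA pools was Itgal, at 1.11 or more since it was at the floor in the former. The ratios of Lama3 (-0.85), Lamb3 (-0.79) and Itga5 (0.74) were smaller than this and than that of Itga8 between the same controls (0.91). These ratios after induction are against the uninduced pool. Against SM22-rtTA, Itga8 was at -2.24, Lamb3 at -1.26, Lama3 at -0.88 and Itga5 at 0.14.

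Across the 5 pools, 8 of these 15 chains (Itga8, Itga9, Itgb1, Itgb2, Itgb5, Lama3, Lama4 and Lamb3) were highest in SM22-rtTA, 53.3% beside 17.2% of all genes above the floor everywhere. The induced pool was lowest for 5 (Itga8, Itgb1, Itgb2, Itgb5 and Lama3), 33.3% beside 16.1%, and highest for Lamc1 alone. With Itgb1 read from its other bright probe set, these counts are 7 of 15 (46.7%) for SM22-rtTA and 4 of 15 (26.7%) for the induced pool. For Itgb5, Lama3 and Lama4, SM22-rtTA was nearly level with the uninduced pool (1618 against 1614, 692 against 682 and 611 against 601). None of the other Itgb5 probe sets was highest in SM22-rtTA. The share for SM22-rtTA thus counts near ties. Wild type was likewise lowest for 5 of 15 (33.3%, beside 31.0% of genes) and SM22-rtTA for 4 (26.7%, beside 20.6%). Hypoxia was lowest for 0 of 15, beside 19.8% of genes. Itgb5, a vitronectin receptor chain, was at 1202 in the induced pool and 1443 to 1618 in the other 4. Its other probe sets differed in the lowest pool. One was lowest in the induced pool (934). Another was at 1167 there, 1158 in hypoxia and 1152 in wild type. The dimmest was at 517 in the induced pool and ranged from 348 in hypoxia to 635 in the uninduced pool. The ratio of highest to lowest pool had a median of 1.78 over the 15 chains and 1.59 over all such genes. By the probe sets that stand for the genes, it was under 1.5-fold for Itga3, Itga6, Itgb2 and Itgb5.

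**Figure D4:**
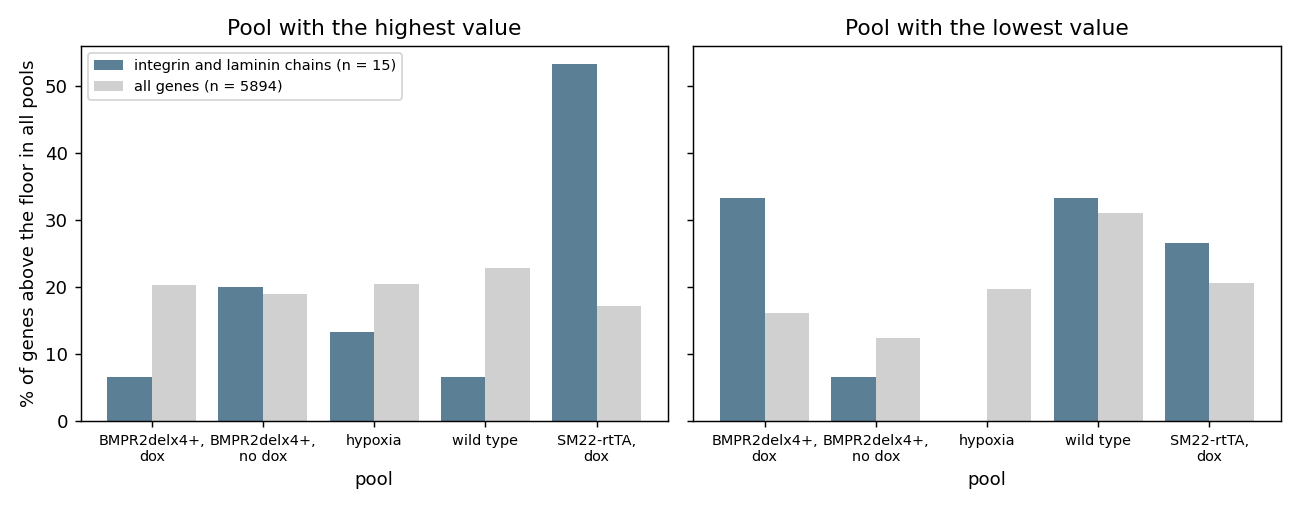
Share of the 15 integrin and laminin chains and of all 5894 genes above the noise floor in every pool whose highest (left) or lowest (right) intensity lay in each pool; bars are percentages of each set, with no error. SM22-rtTA holds the highest value of 53.3% of the chains and 17.2% of all genes, and the induced pool the lowest value of 33.3% and 16.1%. Each gene is read from the probe set that stands for it, and near ties between pools are counted. Wild type also holds the lowest value of 33.3% of the chains, beside 31.0% of all genes.

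Other genes of cell adhesion were read from 3 lists. Over all measured genes, 5.09% were called higher and 2.58% lower after induction against the uninduced pool. Against SM22-rtTA these shares were 9.79% and 6.16%. Of 13 measured basement membrane partners 0 were higher and 3 lower after induction against the uninduced pool: Col4a3, a collagen IV chain of alveolar walls (295 against 680, log2 ratio -1.21), netrin-4 (Ntn4, at the floor against 440, at least 1.59-fold) and the Lama5 receptor Bcam (1817 against 2873, -0.66). The same 3 were lower against SM22-rtTA (-1.76, -1.31 and -1.36). Nidogen (Nid1, 1466 against 1500) and agrin (Agrn, 2425 against 2460) were close to their control. Nid1 was however higher than in SM22-rtTA by 0.57 on the log2 scale, short of 1.5-fold. Of 15 ligands other than laminin, 0 were higher and 3 lower, all of them cell surface ligands of leukocyte integrins that endothelium carries: Icam1 (1775 against 2664), Icam2 (2067 against 3734) and Vcam1 (703 against 1081). Icam2 is also 1 of the 5 endothelial markers called lower, and the part of endothelium in these values was not tested. Against SM22-rtTA 5 ligands were lower: Icam1 (-0.79), Icam2 (-0.67), Npnt (-0.78), fibulin-5 (Fbln5, -0.91) and Tgfb1 (-1.07), with Vcam1 at -0.44. In hypoxia 4 of the 15 were above wild type (Icam1, Thbs1, Vcam1 and fibronectin Fn1, the last 3331 against 2120), beside 7.64% of all genes. Against the transgenic controls 0 were higher, beside 12.2%, and 1 lower, beside 4.3%: Vcam1, at -0.63, which was 0.67 above wild type. Of 23 genes of the integrin adhesome, the proteins that link integrin tails to actin, 2 were higher after induction, Itgb1bp2 and the blood cell kindlin Fermt3 (905 against 571), and 0 lower. Against SM22-rtTA Itgb1bp2 and Parvg (0.62) were higher and Lims1 (-0.73) and Src (-0.76) lower, with Fermt3 at 0.39. Of 4 platelet markers, 3 were called higher against the uninduced pool, beside 5.09% of all genes, with a sum of 4994 against 3325. Their part in the Fermt3 value was not tested. The talin gene Tln1 (1324 against 1636), Ilk (1471 against 1806) and vinculin Vcl (2419 against 2625) had log2 ratios of -0.31, -0.30 and -0.12 and were not called.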

How the data were processed

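RNA of whole mouse lung, pooled by condition, was measured on 5 arrays. The deposited values are linear intensities, 1 per probe set; how the authors summarised and scaled them is not stated in the labels, and no intensity lay under 50. Intensities were taken to log2 and each array was shifted (-0.11 to 0.13) to a common median over the 9046 probe sets above the median of every array. Values under the 50th percentile of the pooled scaled values, 276, were raised to it. Of 22626 probe sets, 20380 had 1 gene in the platform annotation and 691 several; symbols were updated by gene ID from a RefSeq table (20351 matched). The probe set with the highest mean stood for its gene. The 30 members had 55 probe sets, and 14 had more than 1. A gene was measured if above the floor in at least 1 pool (8597 genes). Every member is accounted for, with all pool values for called members and measured laminin chains; from other lists, up to 4 called genes with the largest ratios are named, and further genes were named after their values were seen. Members and lists were chosen with earlier results of these data known. Groups have 1 array each, so no test was run; the number of arrays limits the precision. Promoter sequences were in the RefSeq table for 18 of the 30 members. Python 3.11.15, numpy 2.4.6 and pandas 2.3.3 were used. Alternatives covered the scaling, floor, fold, gene summary, probe set and control range.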

Additional observations from a re-analysis of the deposited data

Results flagged for a closer look

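Lamb3 differed in direction between the 2 forms of raised pressure, each against its matched control with no array in common: its log2 ratio was -0.79 after induction and 0.60 in hypoxia, both beyond 1.5-fold. The difference was not tested, since each side is 1 array. Against the transgenic controls the hypoxic value was -0.55, so the opposite sign rests on the wild-type pool, where Lamb3 was lowest (364). That pool also held kidney transcripts, as given above.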

How the results depend on the processing

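Itga8 was called lower after induction with both controls under every setting run. At 2-fold the numbers of chains higher and lower were 0 and 1 for induction against the uninduced pool, 0 and 2 against SM22-rtTA, 0 and 0 for hypoxia against wild type, and 0 and 0 against the transgenic controls. With the floor at the 70th percentile (555), which left 15 chains measured, they were 0 and 1, 1 and 3, 1 and 0, and 1 and 0. With a pseudocount in place of the floor, which shrinks low ratios, they were 0 and 1, 1 and 4, 0 and 0, and 0 and 0. With the floor at the 30th percentile (132) 8 chains were lower than in SM22-rtTA, and 5 higher and 2 lower in hypoxia against the transgenic controls. With the mean of probe sets 0 were higher after induction, 1 higher and 5 lower than in SM22-rtTA (Itga3, at -0.83, in place of Itgb1, at -0.22), and 1 (Itgav) lower in hypoxia than in wild type. Quantile normalization gave 5 higher in hypoxia than in wild type, and values as deposited 2 lower than the transgenic controls. Where a call also had to lie outside the normal-pressure pools, Lamb3 was called in none of these 4 comparisons, and 0 chains were higher and 3 lower than in SM22-rtTA, and 0 lower in hypoxia than the transgenic controls. Itgav against SM22-rtTA reversed with the mean of probe sets (-0.46) and with its second probe set (-0.38), Itgb1 with another probe set (0.74), and Itga5 after induction with its second probe set (-0.46); the cause was not tested. The 4 median log2 ratios moved by less than 0.34, the SD between the uninduced and SM22-rtTA pools, under every setting. Leaving the wild-type array out of the scaling, chosen after seeing the data, changed no count by over 1.5 times. The counts with Itgb1 read from another probe set were also added after seeing the data. No paired analysis was possible because each condition has 1 array.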
